A study of Mus musculus with 14 samples.

Results

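Gfi1 antibody islands of neurospheres that lay over the Polycomb mark H3K27me3 of tumour cells are described here. They are the islands found with a Gfi1 antibody in neurospheres labelled Cas9 that shared at least 1 bp with a Gfi1 antibody island of neurospheres labelled Suz12F2 and with an H3K27me3 island of Cas9 tumour cells. An island was left out when it touched an H3K4me3 or H3K27ac peak of Cas9 tumour cells, or an island found with a Cas9 antibody in neurospheres. The rule chose 7371 of the 63177 Gfi1 islands of Cas9 neurospheres, or 11.7%. They were thus selected on measured calls of 8 lists, and are named the H3K27me3-marked islands. The comparison set holds the 30598 shared islands that met every other condition but touched no H3K27me3 of Cas9 tumour cells, named the unmarked islands.

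Gfi1 is a zinc finger repressor that binds DNA and recruits histone-modifying enzymes to it, and it is known as an oncogene in a part of Group 3 medulloblastoma, a tumour of the cerebellum. Ezh2 is the enzyme of Polycomb repressive complex 2 that methylates lysine 27 of histone H3, and Suz12 is a subunit that the complex needs. The trimethylated form, H3K27me3, spreads over broad domains of silent developmental genes. H3K4me3 marks promoters and H3K27ac marks active promoters and enhancers, and acetylation and trimethylation cannot sit on the same lysine.

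The series holds 14 ChIP-seq libraries of mouse cells, and every group has 1 library. The tumour libraries come from Ezh2 knockout cells with the genotype p53-/-;p18-/- ;Ezh2-/- and from Cas9 control cells with the genotype p53-/-;p18-/-, each profiled for H3K27me3, H3K27ac and H3K4me3. The neurospheres, floating cultures of neural cells, carry the p53-/-;p18-/- genotype as well. A Gfi1 antibody was used in those labelled Suz12F2 and in those labelled Cas9, and a Cas9 antibody in those labelled Suz12F2, Suz12F1 and U6. The labels do not explain F1, F2 and U6. The series' design text says that the cells overexpress Myc and names a Gfi1 vector among the constructs, without saying which libraries carry it. Its protocol describes retroviral infection, sorting for 2 fluorescent proteins and transplantation into nude mice. The labels do not say how many clones the knockout represents. Since the Gfi1 islands and the tumour marks come from different cells, an overlap says only that both were called at the same place in mm9.

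No test across samples was possible with 1 library per group. Intervals in brackets are 95% intervals for counting error, by Wilson's method for shares and Newcombe's for differences of shares. They cover no biological or technical variation, and neighbouring islands are not independent. Read depth is unknown, so a region that is not called in a list may be below that list's detection. The deposited lists hold from 916 regions for the Cas9 antibody in Suz12F1 neurospheres to 67079 for the Gfi1 antibody in Suz12F2 neurospheres, and the Gfi1 list of Cas9 neurospheres covers 368 Mb.

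The choice of islands set the following values, which are a description. Of the 63177 islands 48093 were shared with Suz12F2 neurospheres, and 9711 of the shared ones lay over tumour H3K27me3. Among those 9711, 1105 touched a Cas9 antibody island, and 1235 of the remaining 8606, or 14.4%, touched an active peak of Cas9 tumour cells. Of the 36508 shared islands without H3K27me3 and without a Cas9 antibody island, 5910, or 16.2%, touched such a peak. The exclusion of active peaks therefore removed a similar share on both sides.

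The H3K27me3-marked islands were long. They covered 61.3 Mb with a median length of 6000 bp and quartiles of 3600 and 10400 bp, while the unmarked islands covered 172 Mb with a median of 4200 bp and quartiles of 2600 and 7000 bp. Islands of 20 kb or more made up 6.91% of the H3K27me3-marked set and 1.96% of the unmarked set. Length is not independent of the rule, since a longer island meets another region more often. Suz12F2 islands covered 78.8% of the length of the H3K27me3-marked islands and 73.1% of that of the unmarked ones. The Gfi1 score that the authors deposited, taken per kb of island, had a median of 42.1 in the H3K27me3-marked islands and 40.0 in the unmarked ones.

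**Figure D1:**
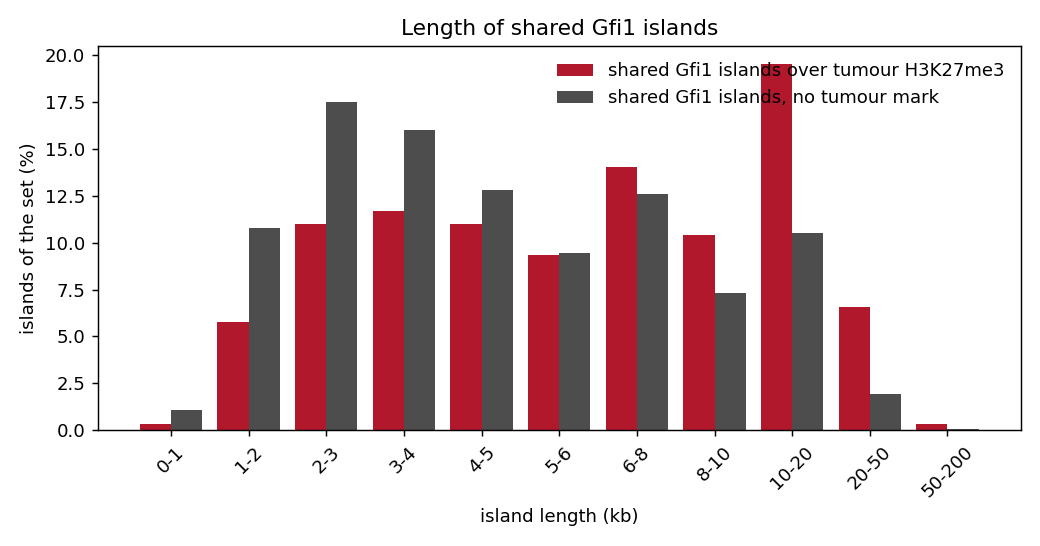
Share of islands (y axis, percent of each set) by island length (x axis, kb) for the 7371 H3K27me3-marked islands (red) and the 30598 unmarked islands (grey). Red bars exceed grey ones in every class from 6 kb upwards, and islands of 20 kb or more make up 6.91% of the red set and 1.96% of the grey set.

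H3K27me3 of Cas9 tumour cells filled 32.6 Mb, or 53.2%, of the length of the H3K27me3-marked islands. In a single island the median share was 65.6%, with quartiles of 38.1% and 93.3%. Some 1635 islands, or 22.2%, lay wholly inside H3K27me3, and 248, or 3.36%, had under 10% of their length in it. Of the Gfi1 islands, 6030 met 1 H3K27me3 island each, and 1341 met 2 or more, up to 8. From the other side, 7814 of the 14107 H3K27me3 islands of Cas9 tumour cells, or 55.4%, touched an H3K27me3-marked Gfi1 island, and 73.0% of their length lay within one.

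At the edge of the rule, 79 islands touched H3K27me3 with 200 bp, the smallest overlap found and the width of 1 counting window. The first 3 by position lay on chr1:183381401-183400000, chr2:92382001-92383800 and chr2:158075401-158080000, and none of these 3 held H3K27me3 or a new peak in the knockout. Just outside the rule, the first 3 unmarked islands that abut an H3K27me3 island with a gap of 0 bp lay on chr1:36663801-36667000, chr1:42841801-42845200 and chr1:78495201-78501800. Of the 380 islands with under 1 kb of H3K27me3, 11.1% held H3K27me3 in the knockout and 0 held a new H3K4me3 peak. Of the 491 unmarked islands within 1 kb of H3K27me3, 7.54% held H3K27me3 in the knockout and 1 held a new H3K4me3 peak.

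Most of the H3K27me3 under these islands was no longer called without Ezh2. Knockout H3K27me3 covered 4.74 Mb of the H3K27me3-marked islands, against 32.6 Mb in Cas9 tumour cells, a ratio of 0.146. In the whole lists H3K27me3 covered 18.6 Mb in the knockout and 71.4 Mb in Cas9 tumour cells, a ratio of 0.261. The whole-list ratio also counts knockout islands at places without H3K27me3 in Cas9 cells, and within former H3K27me3 the order turned. Knockout H3K27me3 covered 9.03% of the Cas9 H3K27me3 that lay in these islands, against 7.09% of all Cas9 H3K27me3. No H3K27me3 was called in the knockout at 6236 of the 7371 islands.

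Knockout H3K27me3 was called at 1135 of the H3K27me3-marked islands, or 15.4% (14.6 to 16.2), against 5.09% of all Gfi1 islands of Cas9 neurospheres. Among the unmarked islands the share was 1033 of 30598, or 3.38% (3.18 to 3.58), and the difference was 12.0 percentage points (11.2 to 12.9). When the unmarked islands were weighted to the length classes of the H3K27me3-marked ones, their share was 3.65% and the ratio of the shares 4.21. When knockout H3K27me3 had to cover 50% of the island, the share was 6.85% of the H3K27me3-marked islands and 1.78% of the unmarked ones. The share of H3K27me3-marked islands grew with island length, with 4.22% (2.72 to 6.50) under 2 kb, 15.9% (14.5 to 17.4) from 5 to 10 kb and 28.5% (24.7 to 32.6) from 20 kb. In the unmarked set these classes had 2.06% (1.65 to 2.58), 4.07% (3.68 to 4.50) and 4.83% (3.38 to 6.84).

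**Figure D2:**
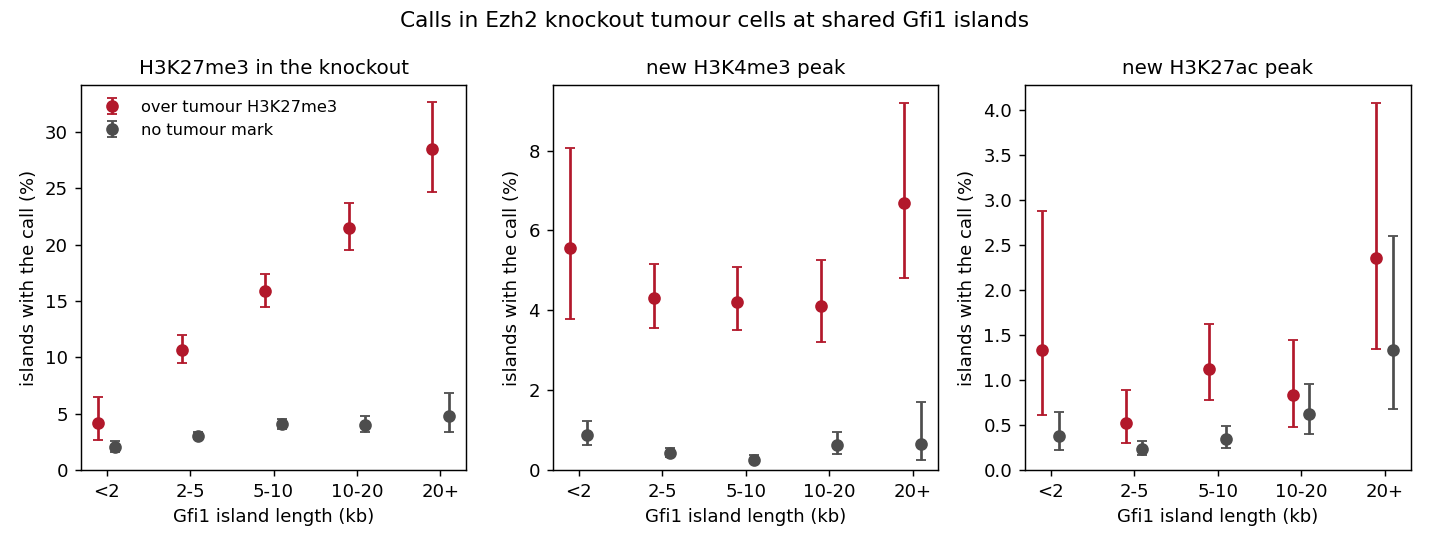
Share of islands (y axes, percent) with knockout H3K27me3, a new H3K4me3 peak or a new H3K27ac peak, by island length (x axes, kb), for H3K27me3-marked islands (red) and unmarked islands (grey), with Wilson 95% intervals for counting error. Knockout H3K27me3 climbs from 4.22% to 28.5% with length in the red set, new H3K4me3 stays between 4.11% and 6.68%, and for new H3K27ac the intervals of both sets are apart only from 5 to 10 kb.

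Where H3K27me3 was called in the knockout, it took up a median of 44.4% of the island, with quartiles of 23.5% and 69.4%. It covered at least 50% of the length of 505 islands, and in 439 its length was no smaller than that in Cas9 tumour cells. In 1001 of the 1135 islands it met the former H3K27me3 inside the island, and in the others it lay beside it. Beside the 9.03% of the part that had been H3K27me3 in Cas9 tumour cells, knockout H3K27me3 covered 6.27% of the rest of the same islands, against 1.68% of the unmarked islands. The rest of these islands, which had no H3K27me3 call in Cas9 cells, was thus covered more than the unmarked islands. This rest lies beside H3K27me3 of Cas9 tumour cells, while unmarked islands lay a median of 61.4 kb from it. Distance was not matched. Of the unmarked islands within 1 kb of H3K27me3, 7.54% held knockout H3K27me3, against 3.38% of all unmarked islands.

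The island with the most knockout H3K27me3 was chr1:134460401-134508200, where 33000 bp were called in the knockout and 44400 bp in Cas9 tumour cells, on a length of 47.8 kb. On chr9:119440401-119485800 the knockout had 30000 bp and Cas9 tumour cells 17800 bp. The next were chr4:151835201-151893600, with 27800 bp in the knockout and 11200 bp in Cas9 tumour cells, and chr15:78427001-78457400, with 23400 bp in the knockout and 22600 bp in Cas9 tumour cells. On chr2:179439001-179472400 the knockout had 22400 bp and Cas9 tumour cells 20800 bp. In these 5 islands except the first, H3K27me3 thus covered more length in the knockout than in Cas9 tumour cells. The choice by knockout length favours such islands. None of the 5 held a new active peak. Again, 5 islands are too few to tell this from the 4.73% of all H3K27me3-marked islands that held one.

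New H3K4me3 was called at a small share of the islands, yet more often in the H3K27me3-marked set than in the unmarked one. A peak was called new when it was in the knockout list and touched no Cas9 tumour peak of the same mark. A new H3K4me3 peak lay in 330 of the 7371 H3K27me3-marked islands, or 4.48% (4.03 to 4.97), against 1.77% of all Gfi1 islands of Cas9 neurospheres. The unmarked islands had 139 of 30598, or 0.454% (0.385 to 0.536), and the difference was 4.02 points (3.57 to 4.52). At equal length classes the ratio of the shares was 9.94. The difference was 0.227 points when the knockout list was limited to its upper 50% of scores, with 0.231% of the H3K27me3-marked islands and 0.00327% of the unmarked ones, and 6.72 points when Gfi1 islands within 5 kb were merged. When the comparison set was allowed active peaks its share was 1.17%. Unlike knockout H3K27me3, the share did not grow steadily with length, being 5.56% (3.79 to 8.07) under 2 kb, 4.11% (3.20 to 5.26) from 10 to 20 kb and 6.68% (4.82 to 9.19) from 20 kb.

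New H3K27ac was called at fewer islands than new H3K4me3 in both sets. A new H3K27ac peak lay in 71 H3K27me3-marked islands, or 0.963% (0.764 to 1.21), and in 106 unmarked islands, or 0.346% (0.287 to 0.419), a difference of 0.617 points (0.405 to 0.874). Both shares were below the 3.60% of all Gfi1 islands of Cas9 neurospheres. Most new H3K27ac peaks, 2354 of 2843, sat at an H3K4me3 peak present in Cas9 tumour cells, and both sets leave out islands with such a peak. When the comparison set was allowed active peaks its share was 3.34%, and the difference turned to -2.38 points. The difference was 0.290 points with the knockout list trimmed to the number of the Cas9 list, 0.0992 points with its upper 50% of scores and 1.39 points with merged islands. From 10 to 20 kb of length the difference was 0.213 points (-0.278 to 0.869) and from 20 kb 1.03 points (-0.595 to 2.86), and both intervals include 0.

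Most H3K27me3-marked islands with new H3K27ac also held new H3K4me3, 52 of 71, or 73.2% (61.9 to 82.1). The reverse did not hold. Of the 330 islands with new H3K4me3, 52 also held new H3K27ac, or 15.8% (12.2 to 20.1), against 19 of the 7041 islands without new H3K4me3, or 0.270% (0.173 to 0.421). Of the 78 new H3K27ac peaks in these islands, 52 overlapped a new H3K4me3 peak. In unmarked islands with new H3K4me3 the share with new H3K27ac was 26 of 139, or 18.7% (13.1 to 26.0), and its interval overlapped that of the H3K27me3-marked islands. Over all Gfi1 islands of Cas9 neurospheres, also those at active peaks of Cas9 tumour cells, it was 275 of 1117, a larger share. New H3K4me3 was about as frequent where H3K27me3 was still called in the knockout, with 4.58% (3.51 to 5.96) of 1135 islands, as where it was not, with 4.46% (3.97 to 5.00) of 6236. For new H3K27ac the shares were 0.705% (0.358 to 1.38) and 1.01% (0.790 to 1.29). Neither knockout H3K27me3 nor a new peak was called at 5941 islands, or 80.6% (79.7 to 81.5), against 29351, or 95.9% (95.7 to 96.1), of the unmarked islands.

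Within the islands the new peaks lay almost wholly in the part that had carried H3K27me3. By peak midpoint, 368 new H3K4me3 peaks lay in the 32.6 Mb under former H3K27me3, a density of 11.3 per Mb (10.2 to 12.5), and 9 lay in the other 28.7 Mb, at 0.313 per Mb (0.143 to 0.595). These brackets hold exact Poisson 95% intervals for counting error. The unmarked islands had 0.856 per Mb (0.723 to 1.01) and all Gfi1 islands of Cas9 neurospheres 3.32 per Mb. For H3K27ac 69 new peaks lay in the former H3K27me3, at 2.12 per Mb (1.65 to 2.68), and 9 in the rest, at 0.313 per Mb. The unmarked islands had 0.658 per Mb (0.542 to 0.791). All Gfi1 islands of Cas9 neurospheres, also those at active peaks of Cas9 tumour cells, had more, at 6.88 per Mb (6.62 to 7.16). The rest of the H3K27me3-marked islands thus had fewer new H3K4me3 peaks per Mb than the unmarked islands, although more of its length was under knockout H3K27me3. For H3K27ac the intervals of the rest and of the unmarked islands overlapped.

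**Figure D3:**
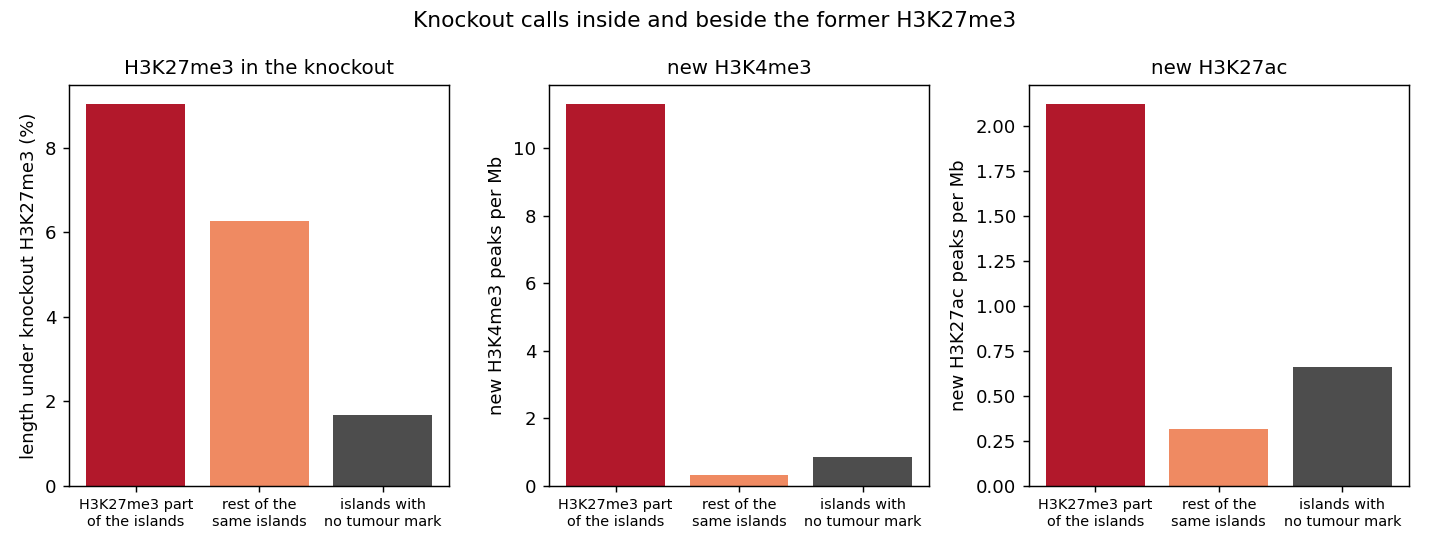
Knockout calls in the former H3K27me3 part of the H3K27me3-marked islands (red), in the rest of the same islands (orange) and in unmarked islands (grey). The y axes give length under knockout H3K27me3 (percent) and new H3K4me3 and H3K27ac peaks per Mb; new H3K4me3 stands at 11.3, 0.313 and 0.856 per Mb.

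New H3K4me3 was more frequent the more of the island H3K27me3 had covered in Cas9 tumour cells. Islands with 75 to 100% of their length in H3K27me3 held new H3K4me3 in 7.24% (6.37 to 8.21) of cases, against 1.43% (0.855 to 2.39) of islands with under 25%, although their median length was 4000 bp against 11000 bp. New H3K27ac stood at 1.34% (0.991 to 1.82) from 75% and 0.409% (0.159 to 1.05) under 25%, where it rests on 4 islands, and the intervals overlapped. Knockout H3K27me3 was called at 14.4% (13.2 to 15.7) of islands with 75% or more and 15.8% (13.7 to 18.3) of those with under 25%, but the lengths of these classes differ. With length held within a class, a split added after seeing the data, the shares differed in long islands. From 10 to 20 kb it was called at 26.4% (21.8 to 31.5) from 75% of cover, against 17.0% (13.4 to 21.3) under 25%. From 20 kb these shares were 40.9% (31.2 to 51.4) and 21.1% (16.0 to 27.4), and from 2 to 5 kb they were 10.7% (9.21 to 12.4) and 14.1% (9.41 to 20.6), with intervals that overlapped. New H3K4me3 lay in 7.88% (6.24 to 9.90) of the islands of 5 to 10 kb from 75% of cover, against 1.05% (0.359 to 3.05) of those under 25%. By length of H3K27me3 inside the island, the share with knockout H3K27me3 went up with each class, with 9.64% under 2 kb, 13.9% from 2 to 5 kb, 19.3% from 5 to 10 kb and 30.9% from 10 kb. The islands of these classes differ in length too, with medians from 3200 bp in the lowest to 18600 bp in the highest, and length was not matched.

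**Figure D4:**
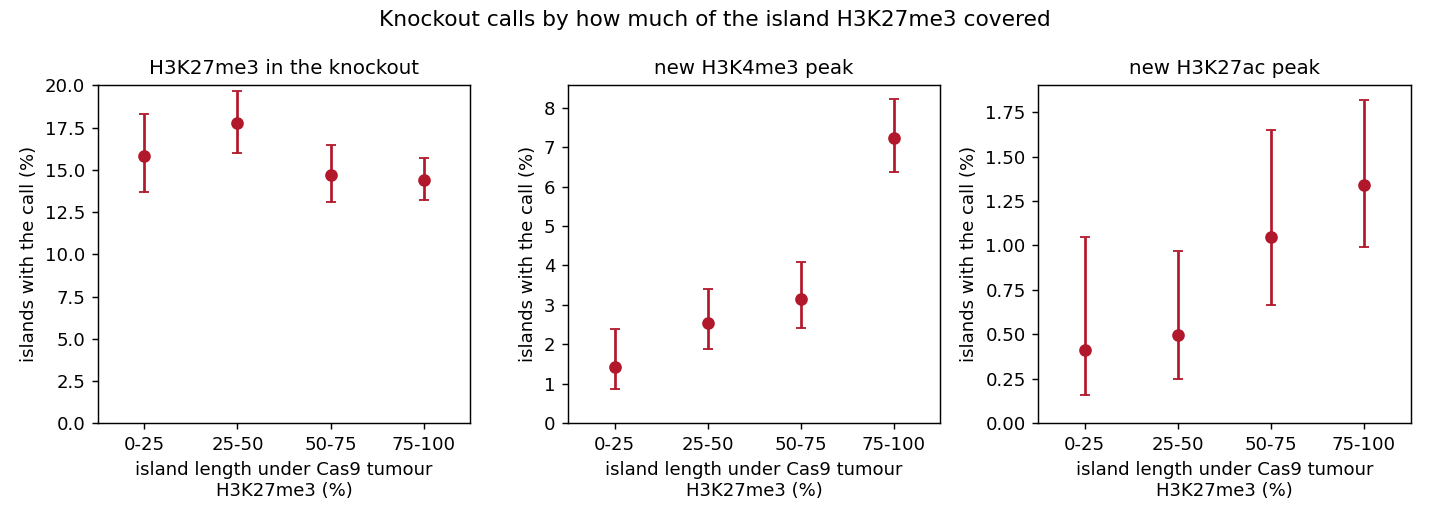
Share of H3K27me3-marked islands (y axes, percent, with Wilson 95% intervals for counting error) with knockout H3K27me3, a new H3K4me3 peak or a new H3K27ac peak, by the percent of the island's length under H3K27me3 in Cas9 tumour cells (x axes). New H3K4me3 stands at 1.43% in the lowest class and 7.24% in the highest, while knockout H3K27me3 lies between 14.4% and 17.8%; the classes differ in length, with medians of 11000 bp in the lowest and 4000 bp in the highest.

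Islands with new H3K4me3 overlapped H3K27me3 and Suz12F2 Gfi1 islands, on which the rule selected by 1 bp, over more of their length. Their median share under H3K27me3 was 94.0%, against 65.6% of all H3K27me3-marked islands, and 46.7% of them lay wholly inside H3K27me3, against 22.2%. Their median length was 6200 bp, close to the 6000 bp of all. Suz12F2 Gfi1 islands covered a median of 88.2% of them, against 83.9%, and the Gfi1 score per kb had a median of 47.3 against 42.1. Islands with knockout H3K27me3 were longer, with a median of 8200 bp, and had 62.1% of their length in H3K27me3. The new H3K4me3 peaks themselves were narrow and low in their list, with a median length of 298 bp and a median deposited score of 13.0, against 516 bp and 22.0 over the whole knockout list. Those in unmarked islands had 244 bp and 12.0. Of all 1418 new H3K4me3 peaks 381, or 26.9%, lay in H3K27me3-marked islands, and of all 2843 new H3K27ac peaks 78, or 2.74%. For scale, H3K27me3-marked islands made up 11.7% of the Gfi1 islands of Cas9 neurospheres and 61.3 of their 368 Mb.

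The new H3K4me3 peaks with the highest scores fell in 5 islands. On chromosome 6 they lay at chr6:52194735-52195528 and chr6:52108348-52108927, in islands of 7.60 and 17.0 kb that were wholly under H3K27me3 in Cas9 tumour cells and had none in the knockout. On chromosome 2 the peak chr2:74542715-74543958 touched an island of 2.20 kb, where 63.6% of the length kept an H3K27me3 call. The peak chr4:147504638-147505471 lay in an island of 4.80 kb, wholly under H3K27me3 in Cas9 cells and free of it in the knockout. The last, chr11:96180102-96180689, lay in the island chr11:96144201-96187600, which held 9 new H3K4me3 peaks, the most in any island, and 1 new H3K27ac peak. On its 43.4 kb H3K27me3 covered 4.15% in the knockout and 98.2% in Cas9 tumour cells.

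Other islands with many new peaks were chr11:23974801-23982400, with 8 new H3K4me3 peaks and 1 new H3K27ac peak on 7.60 kb, and chr6:52149801-52173200, with 4 new H3K4me3 and 3 new H3K27ac peaks. Then came chr1:140733401-140741000, with 2 new H3K4me3 peaks and 1 new H3K27ac peak, and chr1:191991401-191999800, with 3 new H3K4me3 peaks and no new H3K27ac. All 4 lay wholly inside H3K27me3 of Cas9 tumour cells and had no H3K27me3 call in the knockout. In all, 34 of the 330 islands with new H3K4me3, or 10.3%, held 2 or more such peaks.

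**Figure D5:**
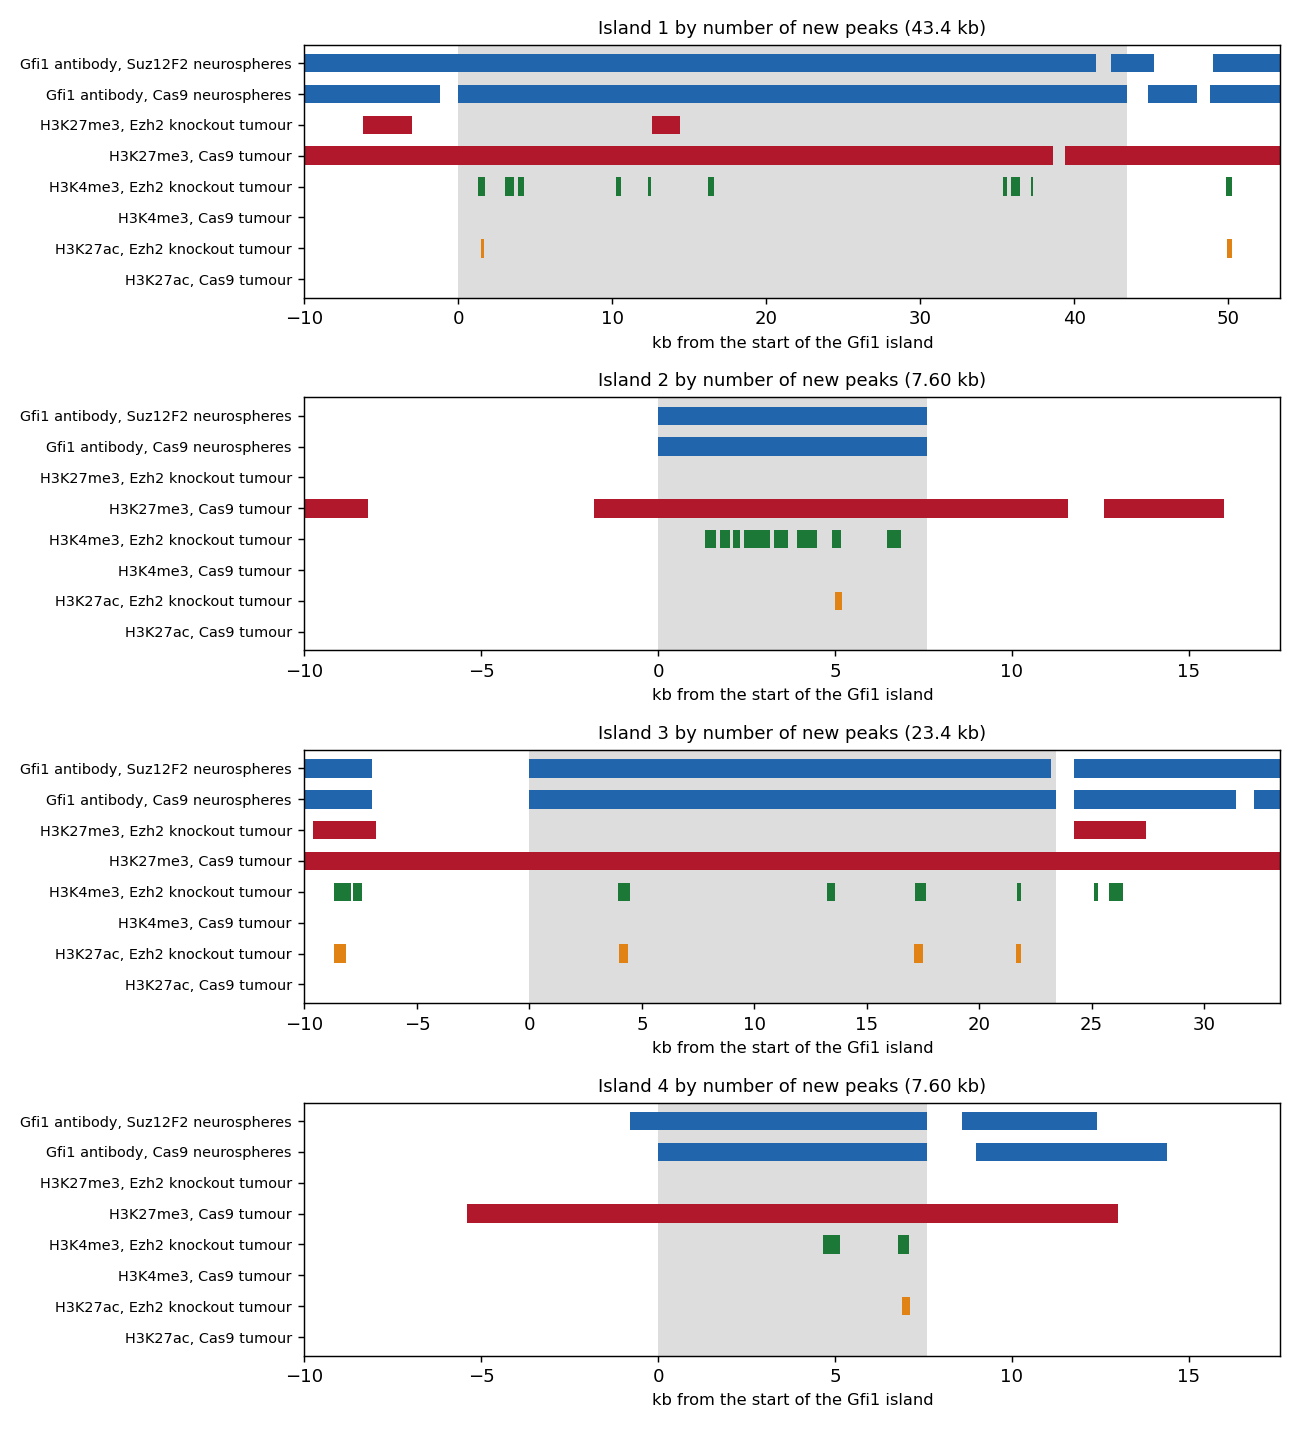
Called regions of 8 lists (rows) at the 4 H3K27me3-marked islands with the most new peaks, drawn to scale with the x axis in kb from the start of the Gfi1 island and 10 kb on either side; grey shading marks the island. All 4 lie under H3K27me3 of Cas9 tumour cells over 98.2% or more of their length, and their 9, 8, 4 and 2 H3K4me3 peaks are in the knockout row alone.

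New H3K27ac with the highest score lay at chr7:19904824-19905502, in the island chr7:19898601-19907000. That island had 76.2% of its length in H3K27me3 of Cas9 tumour cells, 2 new H3K27ac peaks and no new H3K4me3. The highest score of 46.7 compared with one of 26.8 in the unmarked islands, in chr1:20941001-20944000. This contrast rests on 1 peak. The median score of new H3K27ac peaks was 13.0 in H3K27me3-marked islands, 12.6 in unmarked ones and 13.8 over all new peaks. The next were chr15:102812110-102812778, chr6:122751549-122752088, chr19:44800584-44800941 and chr17:80772500-80772869, with scores from 26.0 down to 23.6. The islands on chromosomes 15 and 19 also held new H3K4me3 peaks, and those on chromosomes 6 and 17 did not. Only the one on chromosome 15 had H3K27me3 in the knockout, over 29.7% of its length. In the unmarked set chr1:194595801-194598200 and chr11:101500601-101505000 followed, with scores of 24.4 and 21.1.

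The 5 islands with the highest Gfi1 scores were long and had a small part of their length in H3K27me3. The score was not divided by length for this ranking, which favours long islands. In the whole set, islands with under 25% of their length in H3K27me3 had a median of 11000 bp, against 4000 bp from 75%. None of these 5 islands held a new active peak. Here too 5 islands are too few to tell this from the 4.73% of all H3K27me3-marked islands that did. The highest deposited Gfi1 score belonged to chr8:124511001-124634800, at 6456 over 124 kb, of which 18.7% was under H3K27me3 in Cas9 tumour cells and none in the knockout. Of chr11:118976601-119085600, 5.14% was under H3K27me3 in the knockout and 14.7% in Cas9 cells. On chr17:28125601-28209800 it was 0% in the knockout and 3.09% in Cas9 cells. On chr2:25716601-25788800 it was 9.97% in the knockout and 9.42% in Cas9 cells, and on chr2:29345601-29422200 0% in the knockout and 15.1% in Cas9 cells. Among the unmarked islands the highest scores, from 6902 to 4845, belonged to chr5:125476201-125581200, chr5:140517001-140610800 and chr14:70023801-70100800, and the first held 1 new H3K4me3 peak.

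By length of H3K27me3 the leading island was chr15:83586801-83650200, with 54000 bp in Cas9 tumour cells, none in the knockout and 1 new H3K4me3 peak. After it, chr1:134460401-134508200 and chr1:136071201-136117400 each had 44400 bp in Cas9 tumour cells, of which the first is the island with the most knockout H3K27me3 and the second had none in the knockout. On chr15:100587601-100649400, with 43600 bp in Cas9 tumour cells and none in the knockout, 1 new peak of each mark was called. The fifth was the chromosome 11 island with 9 new H3K4me3 peaks. Islands of similar H3K27me3 length thus differed in the knockout, where they held much H3K27me3, new active peaks or neither.

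Many islands shared an H3K27me3 domain and are not independent of each other. Some 2211 of the 7371, or 30.0%, lay on an H3K27me3 island that met 2 or more of them. Of these, 4.84% (4.02 to 5.81) held new H3K4me3, against 4.32% (3.80 to 4.91) of the 5160 others, and 16.2% (14.8 to 17.8) held knockout H3K27me3, against 15.0% (14.1 to 16.0). Chosen after the counts were seen, the H3K27me3 islands with the most were chr6:52099401-52237200 and chr15:102736601-102877600, with 14 each. On the first, 7 of the 14 held 13 new H3K4me3 peaks and 5 held 7 new H3K27ac peaks, while 2 held knockout H3K27me3. On the second, 7 held 8 new H3K4me3 peaks, 3 held 4 new H3K27ac peaks and 3 held knockout H3K27me3. The third, chr2:74516201-74611600, had 8 islands, of which 4 held new H3K4me3. Several regions named above lie on these domains and are not separate places. The first holds all chromosome 6 islands named for new H3K4me3, and the third holds the chromosome 2 peak. The chromosome 15 island named for new H3K27ac lies on the second. The one on chromosome 19 lies on the fourth, chr19:44790801-44840200, which had 7 islands.

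H3K27me3 islands of Cas9 tumour cells fall into those that touched an H3K27me3-marked Gfi1 island, those that touched only other Gfi1 islands of Cas9 neurospheres, and those without any. Of the 7814 that touched an H3K27me3-marked Gfi1 island, 1172, or 15.0% (14.2 to 15.8), were overlapped in the knockout, against 399 of 3438, or 11.6% (10.6 to 12.7), with other Gfi1 islands and 109 of 2855, or 3.82% (3.17 to 4.59), without any. Over all 14107 the share was 11.9%. Those without Gfi1 were shorter, with a median of 3000 bp against 4200 bp, but from 2 to 5 kb the shares in the same order were still 12.7% (11.8 to 13.8), 8.06% (6.93 to 9.35) and 3.91% (3.16 to 4.84). New H3K4me3 did not keep this order. Over all lengths it lay in 4.40% (3.97 to 4.88) of the 7814 with an H3K27me3-marked Gfi1 island. Over all 14107, which include these, the share was 3.96% (3.65 to 4.30), and the intervals overlapped. From 2 to 5 kb it lay in 2.16% (1.76 to 2.64) of those with an H3K27me3-marked Gfi1 island. In that length class it lay in 3.59% (2.85 to 4.52) of those with other Gfi1 islands and in 0.725% (0.440 to 1.19) of those without. New H3K27ac lay in 0.384% (0.236 to 0.622) with an H3K27me3-marked Gfi1 island, 14.7% (13.2 to 16.3) with other Gfi1 islands and 0.870% (0.551 to 1.37) without. The intervals of the first and the last overlapped. Of all H3K27me3 islands from 2 to 5 kb, 3.91% (3.51 to 4.35) held new H3K27ac, more than of those with an H3K27me3-marked Gfi1 island. Over all lengths the share was 1.47% (1.23 to 1.76) with an H3K27me3-marked Gfi1 island, against 4.76% (4.42 to 5.12) of all 14107. From 2 to 5 kb new active peaks of both marks were thus more frequent with other Gfi1 islands than with the H3K27me3-marked ones. This did not hold in every length class. From 10 to 20 kb new H3K4me3 stood at 12.4% with other Gfi1 islands and 10.9% with the H3K27me3-marked ones, and the intervals overlapped. From 20 kb new H3K27ac lay in 1 of 30 with other Gfi1 islands and in 29 of 201 with the H3K27me3-marked ones. These intervals overlapped too. The rule kept active peaks of Cas9 cells out of the H3K27me3-marked Gfi1 islands and not out of the other 2 classes.

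Sharing with Suz12F2 neurospheres went with the new peaks. The 1129 islands of Cas9 neurospheres over H3K27me3 that met all other conditions but touched no Suz12F2 island held 0 new H3K4me3 and 0 new H3K27ac peaks, which allows a share of up to 0.339% by Wilson's interval. From 2 to 5 kb, H3K27me3 filled 73.3% of the length of the shared islands and 67.1% of that of the islands not shared. In that class new H3K4me3 lay in 107 of 2486 shared islands, or 4.30% (3.57 to 5.17), against 0 of 750. Knockout H3K27me3 was called at 10.7% (9.54 to 12.0) of the shared islands and 4.53% (3.26 to 6.27) of the others. The lack of new peaks was not limited to H3K27me3. Among all 15084 islands not shared, 5 held new H3K4me3, or 0.0331%, against 1.77% of all Gfi1 islands of Cas9 neurospheres. New H3K27ac lay in 3 of them, or 0.0199%, against 3.60%. Islands not shared were shorter, with a median of 3000 bp against 4400 bp of all shared ones, and their Gfi1 scores were not compared.

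Chromosomes differed in the share with knockout H3K27me3. Among the H3K27me3-marked islands it was 26.1% on chromosome 5 and 23.9% on chromosome 4, where the unmarked islands had 7.32% and 6.72%, the highest values of both sets. Among the H3K27me3-marked islands the lowest autosomes were chromosome 16, with 4.03% against 0.858% of unmarked islands, and chromosome 3, with 4.69% against 0.302%. The order was not the same throughout, since chromosome 10 had 15.9% of the H3K27me3-marked islands and 0.757% of the unmarked ones, and chromosome 19 had 9.56% and 0.689%. The share was higher in the H3K27me3-marked set on 19 of 20 chromosomes, the exception being X with 0 of 18 islands against 1 of 108. New H3K4me3 was likewise more frequent in the H3K27me3-marked set on 19 of 20 chromosomes and new H3K27ac on 14. H3K27me3-marked islands lay farther from H3K4me3 of Cas9 tumour cells, at a median of 60.3 kb, than unmarked ones, at 45.2 kb. With both sets limited to islands at least 50 kb away, an alternative added after seeing the data, new H3K4me3 stood at 4.82% against 0.417%.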

How the data were processed

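The authors deposited 11 lists of enriched regions, each called on 1 library, and the 3 input libraries were not used here. The tools are SICER 1.1, BWA 0.5.9-r26, SAMtools, Picard and R 2.14.0 per the submitters' processing notes, which give the build as mm9 and no roles. The names of the deposited island lists (H3K27me3, Gfi1 and Cas9 antibody) give a window of 200 bp, a gap of 600 bp and a false discovery rate of 0.00001. No source used here names the caller of the narrow H3K27ac and H3K4me3 peaks. The score that the authors deposited for each region has no stated meaning and was used only to rank, filter or describe regions within 1 list.

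Islands end on the last base of a window in 0-based counting, and their ends were moved by 1 bp. Overlap needed 1 bp. Python 3.11.15, numpy 2.4.6, scipy 1.17.1 and matplotlib 3.10.9 were used. Overlap counts and lengths were checked against bedtools 2.31.1 for 110 list pairs, of which 0 differed, and 2000 planted overlaps were recovered on simulated data. Numbers missing from the authors' numbering, from 71 to 486 per tumour list, were not analysed here. Groups came from the titles. Alternatives covered overlap, score, length, filter and comparison set. Named regions were the 5 leading by score, covered length or number of new peaks, and the 3 at each edge of the rule. The islands, rules and alternatives were chosen with earlier results of these data known. Genes and sequences are not given, since the annotation at hand is of another build.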

Additional observations from a re-analysis of the deposited data

How the results depend on the processing

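The number of islands, 7371, was 4772 when H3K27me3 had to cover 50% of the island, 4844 with the upper 50% of H3K27me3 scores, 2962 after merging within 5 kb and 4105 at least 50 kb from tumour H3K4me3 (added after seeing the data). Differences are H3K27me3-marked minus unmarked, in percentage points, and the direction held under all alternatives but 1. For knockout H3K27me3 the difference, 12.0, was 11.1 with 50% H3K27me3 cover, 10.8 with islands of the Suz12F2 list, 14.0 with the upper 50% of Gfi1 scores, 8.80 with the upper 50% of knockout scores, 15.0 merged, 13.5 without the Cas9 antibody filter, 9.85 from 2 to 10 kb, 5.07 with 50% knockout cover and 15.5 far from H3K4me3. For new H3K4me3 the difference, 4.02, was 5.31 with 50% cover, 5.47 with the upper 50% of H3K27me3 scores, 0.227 with the upper 50% of knockout scores, 6.72 merged, 4.78 without the antibody filter and 3.31 with active peaks allowed in the comparison set. For new H3K27ac the difference, 0.617, was 0.890 with 50% cover, 0.0992 with the upper 50% of knockout scores, 0.290 with lists of equal number, 1.39 merged and -2.38 with active peaks allowed in the comparison set, which lifts the exclusion of active peaks from that set alone. The median score of new H3K4me3 peaks was 12.0, against 22.0 in the whole knockout list, so few pass the upper 50%. The other 38 of 62 values stayed within the main interval or, for the number of islands, within 1.5 times. No paired analysis was possible because every group has 1 library, and no replicate could be left out.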
